A study of Mus musculus with 9 samples.

Results

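The genes described are those of the amyloid precursor protein and of the proteins that sort and cut it: App, its sorting receptor Sorl1, the alpha-secretases Adam10 and Adam17, the beta-secretase Bace1, and the gamma-secretase parts Psen2, Ncstn, Aph1a and Psenen. They were chosen by name, and all 9 were found among the 36528 gene numbers listed for each library. Their RNA was sequenced in myeloid cells sorted from mouse brain by the surface protein Cd11b, a gate that takes microglia along with border macrophages, monocytes and neutrophils. Mice transgenic for tau with the P301L mutation gave 5 libraries (Tau-P301L 1 and 2 from females, 3 to 5 from males). Littermates without the transgene gave 4 (wild type 1 and 2 from females, 3 and 4 from males), and all animals were 11 to 12 months old. The labels name neither the promoter that drives the transgene nor the cells that express it, nor do they state that every library is another animal, so the tests rest on the spread among libraries, which may be technical in part. Library numbers follow sample order and pair nothing.

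App is a membrane protein cut by competing enzymes. Alpha-secretases, mainly Adam10 and under stimulation Adam17, cut within the amyloid-beta stretch, whereas Bace1 cuts at its start and leaves a stub from which gamma-secretase, a complex of a presenilin with nicastrin (Ncstn), Aph1 and Pen-2 (Psenen), releases amyloid-beta. Sorl1 binds App and steers it away from the endosomes where Bace1 works. In myeloid cells the same alpha- and gamma-secretases also cut cytokine precursors, receptors and Notch proteins, and App itself is made by most brain cells.

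Counted reads ran to 1494727 to 2934587 per Tau-P301L library and 2681666 to 3793606 per wild-type library. CPM stands for counts scaled to a common library size, and 3 reads were worth 0.791 to 2.01 CPM. All 10 microglial markers were present in every library, with a summed level of 8651 to 15362 CPM for Tau-P301L and 10900 to 14828 CPM for wild type. Markers of other brain cells were far lower: summed neuronal markers stood at 82.6 to 195 CPM for Tau-P301L and 111 to 235 CPM for wild type, astrocyte markers at 317 to 675 CPM for Tau-P301L and 317 to 419 CPM for wild type, and oligodendrocyte markers at 329 to 1445 CPM for Tau-P301L and 513 to 715 CPM for wild type. Astrocyte markers in Tau-P301L libraries 3 to 5, at 597, 528 and 675 CPM, exceeded every wild-type library. Genotype estimates were lower in Tau-P301L for 9 of 10 microglial, 7 of 8 tested neuronal and 4 of 6 tested oligodendrocyte markers. They were higher for 5 of 7 tested astrocyte markers, and no marker in these lists passed the threshold. Summed endothelial markers stood at 6.84 to 39.1 CPM for Tau-P301L and 10.9 to 29.4 CPM for wild type, mostly Pecam1, which had 11 to 65 reads a library, while Cldn5 was at 0 reads in all 9. Of 5 T and NK cell markers, Cd3e, Nkg7 and Gzma were at 0 in all 9, and the other two had at most 5 reads in any library. Tau-P301L libraries 3 and 5 were the least like the others, their log2 profiles correlating on average at 0.844 and 0.835 with them, where the remaining 7 lay at 0.864 to 0.896. Library 5 had the fewest reads, 1494727. Library 3 had the largest mitochondrial share of reads, 22.9%, against 9.21 to 19.8% in wild type. The part of depth or mitochondrial share in the gene levels was not tested. In such bulk RNA, fewer cells of a type and less RNA per cell cannot be told apart. The transgene was not measured as a feature of its own, so the genotype labels could not be checked here.

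On a length-adjusted scale the alpha-secretases were the highest of the set. The authors' size-factor-adjusted RPKM (nRPKM) allows levels of different genes to be compared. Over all 9 libraries Adam10 averaged 11.0 ± 4.75 nRPKM and Adam17 10.8 ± 2.99 nRPKM (SD, n = 9), each above 94.3% of the 12250 genes tested. Their means were close, and the 2 were not tested against each other. Adam10 was the higher in 2 of 9 libraries, both of them Tau-P301L, and in 0 wild-type libraries. Ncstn followed at 3.98 ± 1.58 nRPKM and App at 3.07 ± 0.638 nRPKM, and these neighbours overlapped, with Ncstn above App in 6 of 9 libraries. App lay above 75.9% of tested genes.

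Bace1 stood well below its competitors for App. It averaged 1.03 ± 0.350 nRPKM, next to Sorl1 at 1.03 ± 0.426 nRPKM, and Bace1 was the higher of that pair in 4 of 9 libraries. App exceeded Bace1, and Adam17 exceeded Ncstn, in 9 of 9 libraries. The length-adjusted ratio of Adam10 to Bace1 was 17.5, 7.66, 10.6, 9.06 and 12.6 in Tau-P301L libraries 1 to 5, against 7.42, 13.4, 7.90 and 11.3 in wild-type libraries 1 to 4, so Adam10 led in every library and the groups overlapped. The ratio of App to Bace1 was 2.18 to 3.62 in Tau-P301L and 2.95 to 6.004 in wild-type libraries.

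Gamma-secretase parts were uneven at the RNA level. Against the 3.98 nRPKM of Ncstn, which recognises substrates, Psen2, one of the alternative catalytic presenilins, averaged 0.642 ± 0.434 nRPKM, Aph1a, a scaffold, 0.483 ± 0.396 nRPKM and Psenen, which completes the complex, 0.341 ± 0.286 nRPKM (SD, n = 9). The last 3 overlapped widely, with Psen2 above Aph1a and Aph1a above Psenen in 5 of 9 libraries each. They rested on few reads: 133 for Psen2, 160 for Aph1a and 25 for Psenen over all libraries, against 1174 for Ncstn. Protein or enzyme activity was not measured.

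**Figure D1:**
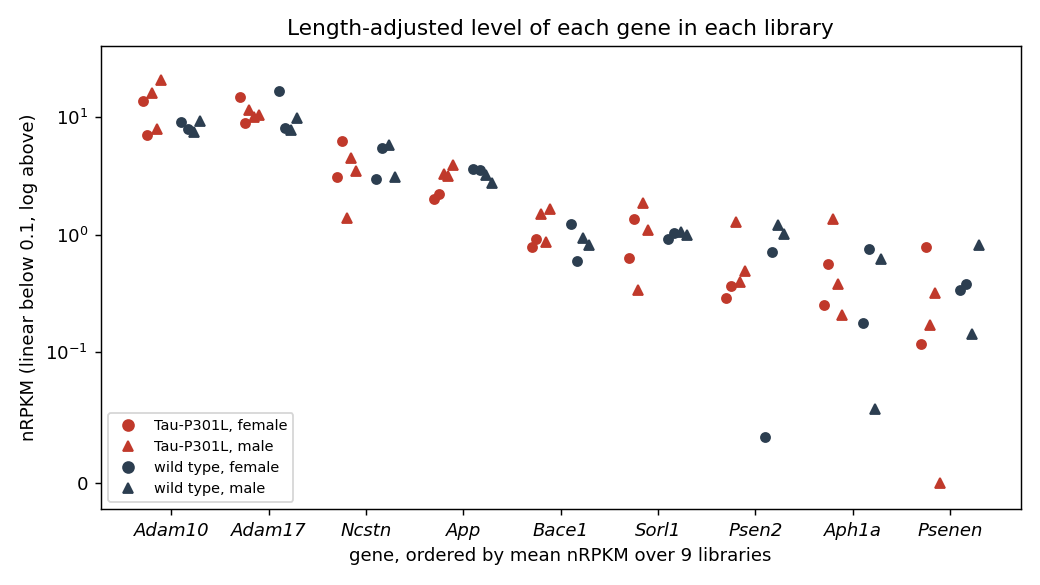
Length-adjusted level (nRPKM, linear below 0.1 and logarithmic above) of the 9 genes in each library, ordered by the mean over libraries. Points are libraries, coloured by genotype and shaped by sex. Adam10 and Adam17 lie between 7.00 and 20.7 nRPKM, while Psen2, Aph1a and Psenen reach at most 1.35 nRPKM.

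The central comparison was Tau-P301L against wild type, with sex in the model. None of the 8 genes past the low-count filter differed between the groups at an adjusted p of 0.05 (edgeR), and none had an unadjusted p under 0.05, against 6.35% of all 12250 genes tested. With edgeR 0.00816% of all genes passed at the adjusted threshold, a single gene that is not one of these. DESeq2, which called 0.23% of the genes it adjusted, and limma-voom called none of the 8 either. In no gene were the groups fully separated, against 2.48% of all genes. Estimates were higher in Tau-P301L for 5 and lower for 3 of the 8, with a median log2 fold change of 0.08 beside -0.00070 over all genes tested. The intervals are wide, and differences of any size inside them remain possible.

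**Figure D2:**
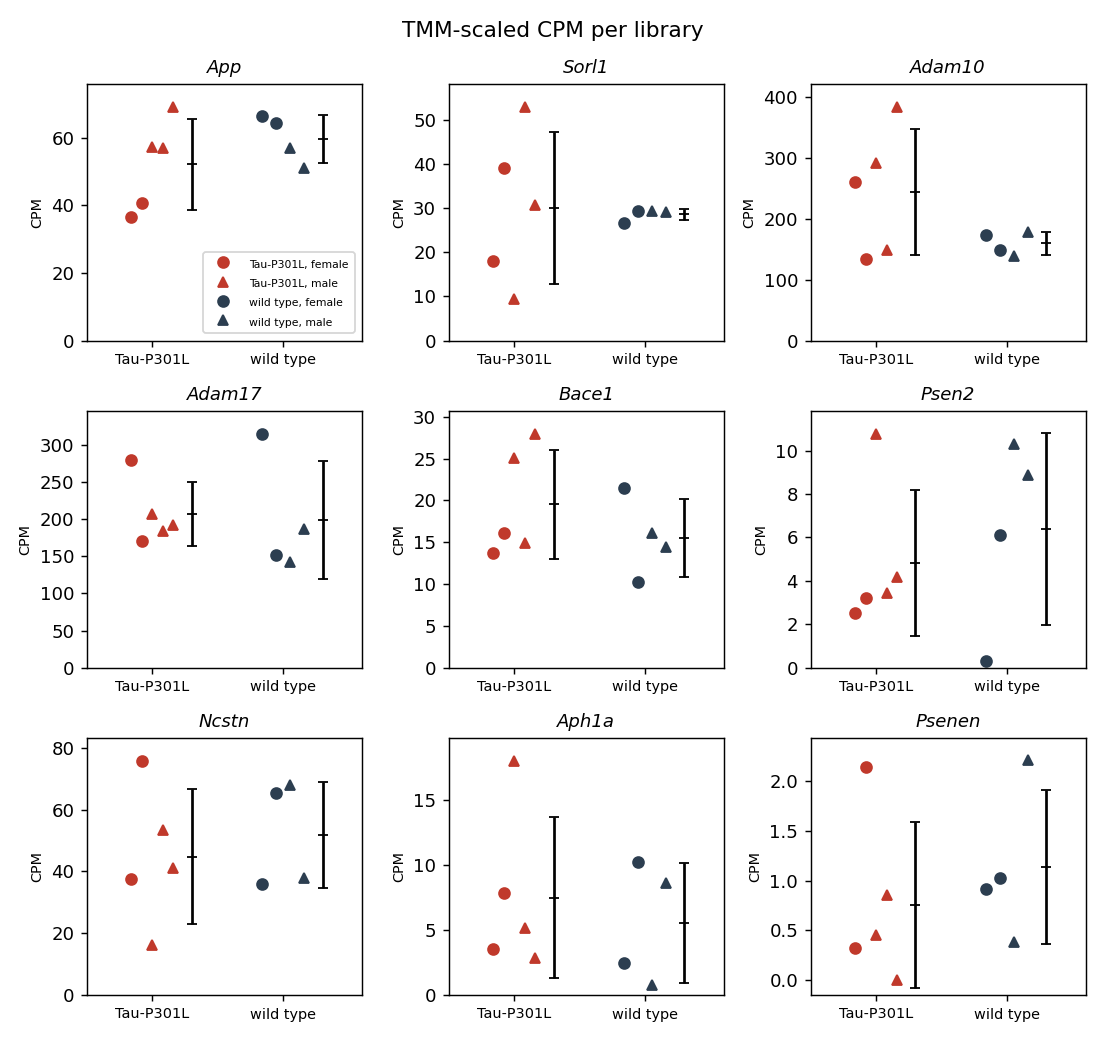
TMM-scaled CPM of each gene per library, Tau-P301L on the left and wild type on the right of each panel, circles for females and triangles for males, with bars for mean ± SD (n = 5 and 4). The groups overlap in all 9 panels. Sorl1 runs from 9.42 to 53.0 CPM in Tau-P301L and from 26.7 to 29.5 CPM in wild-type libraries.

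App (chr16:84952666-85175255 in GRCm38.p6), the precursor itself, stood at 36.5, 40.7, 57.4, 56.9 and 69.1 CPM in Tau-P301L libraries 1 to 5, against 66.5, 64.4, 57.0 and 51.0 CPM in wild-type libraries 1 to 4. The groups overlapped, with both Tau-P301L females below every other library. The means were 52.1 ± 13.4 CPM (SD, n = 5) for Tau-P301L and 59.7 ± 7.13 CPM (SD, n = 4) for wild type. The log2 fold change was -0.26 (95% interval -0.86 to 0.35, edgeR adjusted p = 0.896), and it was -0.12 without Tau-P301L library 1, -0.17 without Tau-P301L library 2 and -0.41 without wild-type library 4.

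Split by sex, the App estimates had opposite signs, with neither past the threshold. In females it stood at 36.5 and 40.7 CPM for Tau-P301L and 66.5 and 64.4 CPM for wild type, and a fit of females alone gave a log2 fold change of -0.76 (edgeR adjusted p = 0.947). In males it stood at 57.4, 56.9 and 69.1 CPM for Tau-P301L and 57.0 and 51.0 CPM for wild type, and a fit of males alone gave 0.18 (edgeR adjusted p = 0.977). The difference between these effects, tested as an interaction, was 0.94 (male minus female effect, 95% interval -0.25 to 2.12, edgeR adjusted p = 0.99999). It was thus not past the threshold, and leaving out each library in turn gave 0.84 to 1.01. No gene passed for the interaction in edgeR (0%), with 456 of 12250, or 3.72%, under an unadjusted p of 0.05, while DESeq2 called 4 genes, none of them in this set.

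The highest App level, in Tau-P301L library 5, came with the highest summed oligodendrocyte markers (1445 CPM) and the highest astrocyte markers (675 CPM). The lowest App level, in Tau-P301L library 1, came with the lowest summed neuronal markers (82.6 CPM). Other libraries did not follow this: wild-type library 2, with 64.4 CPM of App, had the lowest astrocyte markers (317 CPM) and neuronal markers of 111 CPM. With the neuronal markers as a covariate the log2 fold change of App was -0.11, against -0.26 without that covariate, neither past the threshold. That fit took in no astrocyte or oligodendrocyte markers. The part of neurons or other cells in the App levels was not tested.

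**Figure D3:**
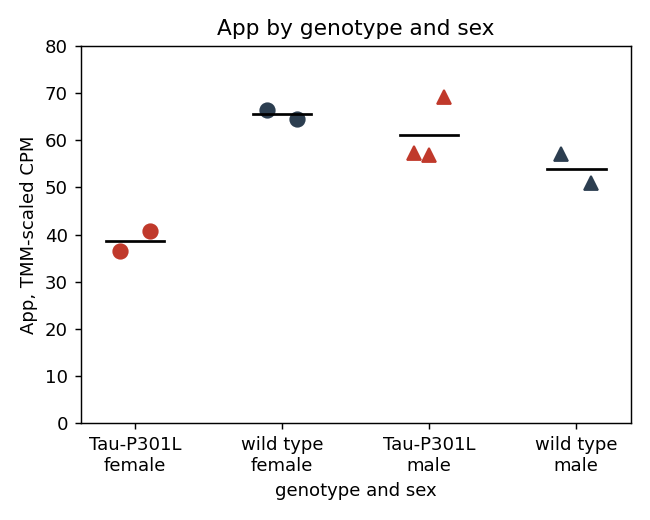
App level (TMM-scaled CPM) by genotype and sex, each point a library and each line a mean, with females on the left. The 2 Tau-P301L females lie at 36.5 and 40.7 CPM, below the 2 wild-type females, while males of both groups lie between 51.0 and 69.1 CPM.

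The sorting receptor Sorl1 (chr9:41964709-42124297) was scattered in Tau-P301L libraries and nearly level in wild type. It stood at 18.1, 39.3, 9.42, 53.0 and 30.7 CPM in Tau-P301L libraries 1 to 5, against 26.7, 29.3, 29.5 and 29.1 CPM in wild-type libraries 1 to 4. The wild-type values lay inside the Tau-P301L range. The means were 30.1 ± 17.2 CPM (SD, n = 5) for Tau-P301L and 28.6 ± 1.32 CPM (SD, n = 4) for wild type, a log2 fold change of 0.06 (95% interval -0.81 to 0.93, edgeR adjusted p = 0.985). The coefficient of variation was 57.1% in Tau-P301L and 4.61% in wild-type libraries, while counting error alone would give about 13.7% and 10.7%, so the wild-type libraries agreed more closely than their read numbers require. The difference in spread was not tested. The sign of the fold change turned without Tau-P301L library 2 (-0.15) or library 4 (-0.25). Library 4, with the highest Sorl1 level, also had the highest summed neutrophil markers, 278 CPM against at most 79.6 CPM elsewhere, and the part of such cells was not tested.

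Of the alpha-secretases, Adam10 (chr9:70678944-70780229), the main constitutive one, had the smallest p of the set. It stood at 261, 135, 292, 148 and 384 CPM in Tau-P301L libraries 1 to 5, against 174, 149.7, 139 and 178 CPM in wild-type libraries 1 to 4. Tau-P301L libraries 1, 3 and 5 lay above every wild-type library, while library 2 lay below them all and library 4 lay within their range. The means were 244 ± 104 CPM (SD, n = 5) for Tau-P301L and 160.1 ± 18.9 CPM (SD, n = 4) for wild type, a log2 fold change of 0.56 (95% interval -0.03 to 1.16, edgeR adjusted p = 0.787). Without Tau-P301L libraries 3 and 5 it was 0.14, and in males alone 0.80. The 3 Tau-P301L libraries with high Adam10 had summed border macrophage markers of 149 to 171 CPM. The sums were 254 and 299 CPM in the other 2 and 229 to 307 CPM in wild type. Stab1 had the highest mean of that list, 136 CPM for Tau-P301L and 215 CPM for wild type. The list was mixed: of its 6 tested markers, 2 had higher genotype estimates (Lyve1 0.95, Ms4a7 0.98) and 4 lower. Malat1, an abundant nuclear RNA, took 10.8 to 11.5% of the reads of the 3 libraries with high Adam10. Its share was 9.02 and 8.53% in the other 2 and 8.53 to 12.8% in wild type. The part of either in the Adam10 levels was not tested.

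Adam17 (chr12:21323509-21373632), the sheddase of tumour necrosis factor, was at 279.5, 170.3, 207, 184 and 192 CPM in Tau-P301L libraries 1 to 5, against 314, 152, 142 and 186 CPM in wild-type libraries 1 to 4. The Tau-P301L values lay inside the wild-type range, and library 1 was the highest of each. The log2 fold change was 0.11 (95% interval -0.42 to 0.64, edgeR adjusted p = 0.950) and turned negative without wild-type library 2 (-0.02) or 3 (-0.01). The length-adjusted ratio of Adam10 to Adam17 was 0.784 to 1.98 in Tau-P301L and 0.549 to 0.976 in wild-type libraries. It exceeded 1 in Tau-P301L libraries 3 and 5, at 1.40 and 1.98, and in no wild-type library.

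Bace1 (chr9:45838545-45862484), the beta-secretase, stood at 13.7, 16.1, 25.1, 14.97 and 27.9 CPM in Tau-P301L libraries 1 to 5, against 21.5, 10.2, 16.1 and 14.4 CPM in wild-type libraries 1 to 4. The groups overlapped, with the highest values in Tau-P301L libraries 3 and 5. The means were 19.5 ± 6.5002 CPM (SD, n = 5) for Tau-P301L and 15.5 ± 4.65 CPM (SD, n = 4) for wild type, a log2 fold change of 0.26 (95% interval -0.60 to 1.12, edgeR adjusted p = 0.932). Without Tau-P301L libraries 3 and 5 it was -0.07, without wild-type library 1 0.55, and 0.14 to 0.15 when Tau-P301L library 5, wild-type library 2 or wild-type library 4 was left out. Bace1 overlaps Rnf214, which had 1641 reads over all libraries against 413 for Bace1, and since counting is not stated to use strand, reads where they overlap cannot be told apart.

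Among gamma-secretase parts, Ncstn (chr1:172066013-172082789) stood at 37.5, 75.7, 16.1, 53.4 and 41.2 CPM in Tau-P301L libraries 1 to 5, against 35.9, 65.5, 68.1 and 37.9 CPM in wild-type libraries 1 to 4. The lowest and the highest value both belonged to Tau-P301L. The log2 fold change was -0.21 (95% interval -0.98 to 0.56, edgeR adjusted p = 0.938), and it was 0.01 without Tau-P301L library 3 and 0.07 without wild-type library 3. Ncstn overlaps Copa, which had 2982 reads in all against 1174.

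Psen2 (chr1:180227004-180263467) had 8, 9, 24, 8 and 6 reads in Tau-P301L libraries 1 to 5, against 1, 18, 27 and 32 reads in wild-type libraries 1 to 4. At 2.54 to 10.8 CPM for Tau-P301L and 0.306 to 10.3 CPM for wild type the groups overlapped throughout (log2 fold change -0.43, 95% interval -1.89 to 1.03, edgeR adjusted p = 0.933), and without wild-type library 2 the value was 0.15. Aph1a (chr3:95893921-95898592) had 11, 22, 40, 12 and 4 reads in Tau-P301L libraries, against 8, 30, 2 and 31 in wild-type libraries. Its log2 fold change of 0.39 (95% interval -1.17 to 1.95, edgeR adjusted p = 0.939) became -0.19 without Tau-P301L library 3 and -0.08 without wild-type library 3. Psenen (chr7:30561865-30563627) was too low for the filter, with 1, 6, 1, 2 and 0 reads in Tau-P301L libraries and 3, 3, 1 and 8 in wild-type libraries, so most of its levels were at or under that of 3 reads and no fold is given. Psenen overlaps U2af1l4, which had 125 reads in all against 25. App, Sorl1, Adam17, Psen2 and Aph1a each overlap a gene with fewer reads than their own, and Adam10 overlaps none.

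**Figure D4:**
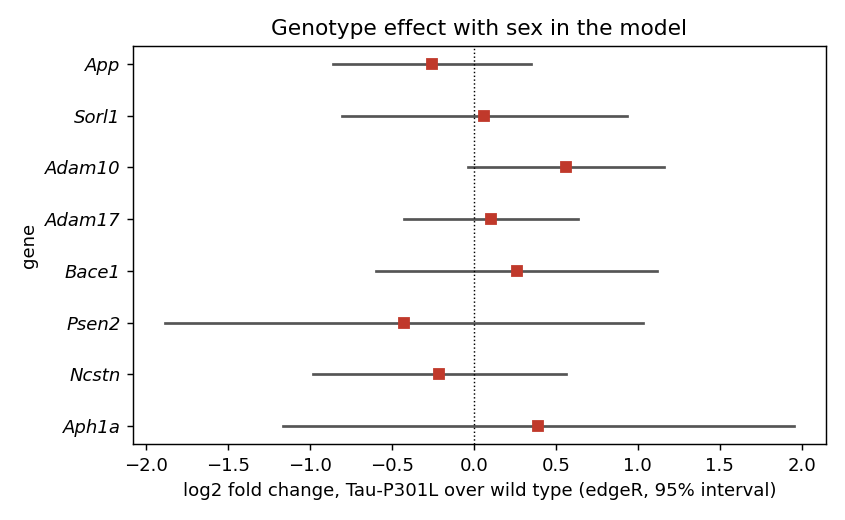
Log2 fold change of Tau-P301L over wild type for the 8 genes past the low-count filter (squares) with 95% intervals (lines), from edgeR with sex in the model. Every interval includes 0, and that of Adam10, from -0.03 to 1.16, comes closest to leaving it out.

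Sex itself gave no call in the set: 0 of 8 genes passed in edgeR, against 6 genes or 0.049% of all tested, and none was under an unadjusted p of 0.05, against 2.43%. The largest estimate was that of Psen2, at 7.51 CPM on average in males and 3.05 CPM in females (log2 fold change male over female 1.32, 95% interval -0.19 to 2.82, edgeR adjusted p = 0.99985). Adam17 leaned the other way, with 182 CPM in males and 229 CPM in females (-0.35, 95% interval -0.87 to 0.18, edgeR adjusted p = 0.99985). The other 6 had log2 values of -0.31 to 0.30.

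Across libraries, Sorl1 and Ncstn varied most alike of the 36 pairs of these genes (Pearson r = 0.82, Spearman rho = 0.80 on log2 CPM over 9 libraries), and both were lowest in Tau-P301L library 3. Several pairs ran against each other. By r the most opposed were Adam17 with Psen2 (r = -0.74, rho = -0.45), Adam10 with Psenen (r = -0.69, rho = -0.48) and Adam10 with Ncstn (r = -0.68, rho = -0.77), and by rho Adam17 with Ncstn (r = -0.54, rho = -0.88). Psen2 had 1 to 32 reads and Psenen 0 to 8 reads a library, so their coefficients rest on few reads. Adam17 was highest where Psen2 had only 1 read, in wild-type library 1. Adam10 was high and Ncstn low in Tau-P301L library 3, and the reverse held in Tau-P301L library 2. These coefficients describe the same 9 libraries, which share depth and quality differences, and carry no test. For Sorl1, Ncstn and Adam10, chosen after these values were seen as a like pair and one of several opposed genes, the 250 bases before the start in the promoter table are shown (RefSeq, GRCm38.p6, 5′ to 3′ on the gene's strand). A gene can have several starts, and the windows of Ncstn and Adam10 reach into the gene spans given above. The bases after the table's start lay near the beginning of a GENCODE transcript of the same gene for 6 of the 8 genes with a promoter entry. Capitals mark the GC box GGGCGG, a site of Sp1-type factors, on either strand, and overlapping matches run together.
Sorl1, chr9:42124298-42124547, minus strand: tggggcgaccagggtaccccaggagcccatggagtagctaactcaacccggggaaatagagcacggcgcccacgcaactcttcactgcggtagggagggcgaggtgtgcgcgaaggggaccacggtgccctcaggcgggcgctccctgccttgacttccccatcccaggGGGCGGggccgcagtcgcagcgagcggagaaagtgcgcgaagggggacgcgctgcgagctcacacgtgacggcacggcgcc
Ncstn, chr1:172082750-172082999, minus strand: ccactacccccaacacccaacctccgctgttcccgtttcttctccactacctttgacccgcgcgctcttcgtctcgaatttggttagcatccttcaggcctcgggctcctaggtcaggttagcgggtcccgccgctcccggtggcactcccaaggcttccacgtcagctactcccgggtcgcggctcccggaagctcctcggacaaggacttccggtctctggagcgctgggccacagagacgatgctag
Adam10, chr9:70678732-70678981, plus strand: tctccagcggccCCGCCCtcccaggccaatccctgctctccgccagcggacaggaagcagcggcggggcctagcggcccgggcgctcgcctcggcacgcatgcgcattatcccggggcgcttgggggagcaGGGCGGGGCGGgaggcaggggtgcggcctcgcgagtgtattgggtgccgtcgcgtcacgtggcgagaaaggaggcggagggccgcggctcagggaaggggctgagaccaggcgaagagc

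The windows of Sorl1, Ncstn and Adam10 held 1, 0 and 3 GC boxes, so the pair that varied alike was not alike in this motif. Of the 8 genes with a promoter in the table, 6 had at least 1 GC box, among them App, Adam17, Psen2 and Aph1a, against 32.9% of 27025 windows of the same length. The windows of App (chr16:85173708-85173957) and Psen2 (chr1:180256301-180256550) lie wholly inside the gene spans given above. The core GAGGAA of PU.1, the lineage factor of myeloid cells, searched on both strands, was in 0 of the 8 and in 23.1% of all windows. GC content was 57.2 to 74.0% in the 8, against a median of 52.0%. A match is a description of letters and was not tied to binding here.

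**Figure D5:**
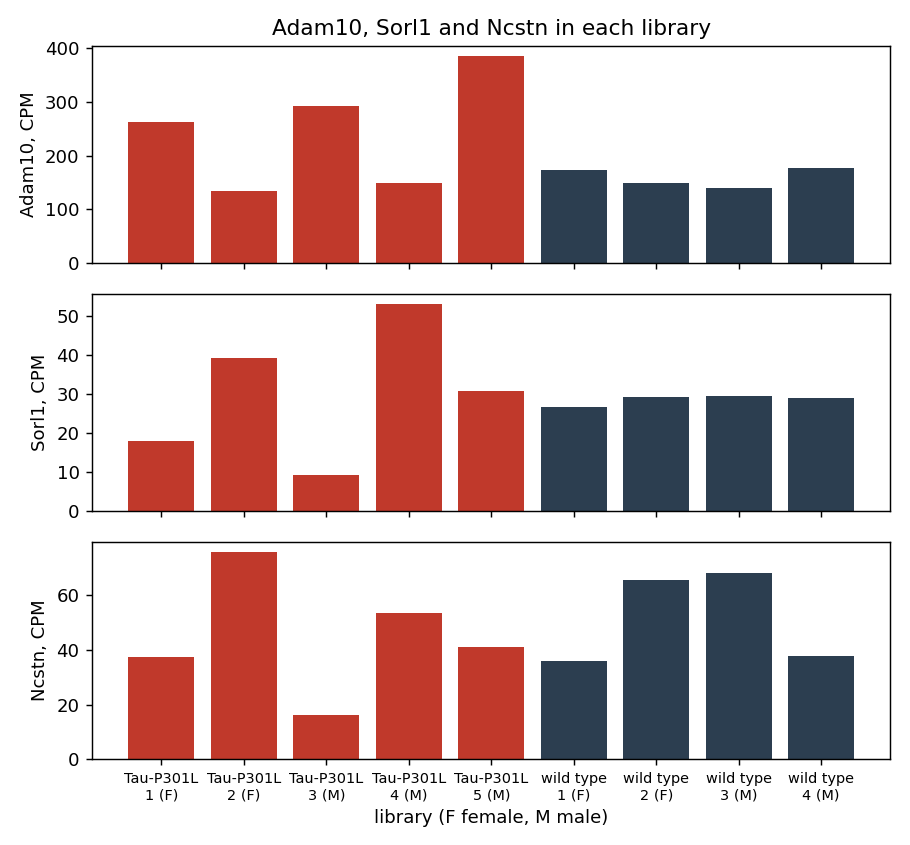
TMM-scaled CPM of Adam10, Sorl1 and Ncstn in each library, Tau-P301L (red) left of wild type (dark), with sex in brackets. In Tau-P301L library 3 Adam10 stands at 292 CPM while Sorl1 and Ncstn are at their lowest, 9.42 and 16.1 CPM. In Tau-P301L library 2 Adam10 is at its lowest, 135 CPM, and Ncstn at its highest, 75.7 CPM.

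By likeness of log2 CPM over the 9 libraries among 7362 other genes, the closest to App was Timp2, a metalloprotease inhibitor (r = 0.93, rho = 0.95). Next to App came Bpnt2 (r = 0.91, rho = 0.92) and the predicted gene Gm29811 (r = 0.91, rho = 0.97). The closest to Sorl1 were Slc46a3 (r = 0.98, rho = 0.85), Akt1 (r = 0.96, rho = 0.68) and Tns1 (r = 0.96, rho = 0.87). For the remaining genes the single closest were Hdgfl3 for Adam10 (r = 0.97, rho = 0.83), 1700094J05Rik for Adam17 (r = 0.98, rho = 0.92) and Zfp174 for Bace1 (r = 0.95, rho = 0.95). Among gamma-secretase parts they were Adamts10 for Ncstn (r = 0.96, rho = 0.75), Dock10 for Aph1a (r = 0.98, rho = 0.98), Tep1 for Psenen (r = 0.92, rho = 0.90) and Rel for Psen2 (r = 0.88, rho = 0.92). Those of Aph1a, Psenen and Psen2 rest on few reads. With so many genes and 9 libraries, high coefficients arise readily and are given as descriptions.

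The wider pathway was read from 6 lists, of whose 70 genes 56 passed the low-count filter. None passed at the adjusted threshold in either direction in edgeR or DESeq2. Unadjusted, 5 of the 56, or 8.93%, were under 0.05, against 6.35% of all genes, and the median log2 fold change was -0.09. Groups were fully separated for 1 of the 56, or 1.79%, against 2.48% of all genes.

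That gene was Gsap, the gamma-secretase activating protein. It stood at 146, 114, 113, 129.6 and 159 CPM in Tau-P301L libraries 1 to 5, against 83.1, 102, 79.6 and 102 CPM in wild-type libraries 1 to 4. The lowest Tau-P301L value exceeded the highest of wild type, with means of 132 ± 19.7 CPM (SD, n = 5) for Tau-P301L and 91.6 ± 11.9 CPM (SD, n = 4) for wild type. Its estimate of 0.53 on the log2 scale (SE 0.24, edgeR adjusted p = 0.776) did not pass over all genes.

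In the same list of 14 tested App homologues, adaptors and modulators, 5 estimates were higher and 9 lower, with a median of -0.04. Itm2c, a BRICHOS protein that slows App cutting, stood at 28.4 ± 7.33 CPM for Tau-P301L and 41.2 ± 7.85 CPM for wild type (log2 fold change -0.59, edgeR adjusted p = 0.789). The adaptor Apbb3 was low, at 8.56 ± 4.25 CPM for Tau-P301L and 4.90 ± 2.57 CPM for wild type. Its groups overlapped, with a log2 fold change of 0.84 (SE 0.62, edgeR adjusted p = 0.825). The App homologue Aplp2 stood at 101 ± 47.5 CPM for Tau-P301L and 66.2 ± 12.9 CPM for wild type (log2 fold change 0.41, SE 0.31, edgeR adjusted p = 0.830). Its groups overlapped, and the lowest of all libraries was Tau-P301L library 1, at 33.7 CPM. On the length-adjusted scale Aplp2 averaged 5.57 nRPKM over all libraries beside 3.07 nRPKM for App.

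Of 16 tested sorting genes, 9 had higher and 7 lower estimates, with a median of 0.03. Lrp1, an endocytic receptor that binds App and amyloid-beta, stood at 532, 729.5, 281, 862 and 441 CPM in Tau-P301L libraries 1 to 5, against 981, 673, 1218 and 770 CPM in wild-type libraries 1 to 4. The groups overlapped, and Tau-P301L library 3 was again the lowest (log2 fold change -0.68, SE 0.28, edgeR adjusted p = 0.772). The retromer parts Vps29 and Vps26a, which return Sorl1 and its cargo from endosomes, had log2 fold changes of 0.97 (SE 0.55) and 0.54 (SE 0.33). Vps29 was low, at 11.0 ± 5.12 CPM for Tau-P301L and 5.51 ± 2.43 CPM for wild type, and the groups overlapped for both genes.

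Of 9 tested regulators of Adam10 and Adam17, 2 estimates were higher and 7 lower, with a median of -0.22. Furin, which removes the propeptide of both enzymes, stood at 17.8, 22.1, 8.52, 30.4 and 9.08 CPM in Tau-P301L libraries 1 to 5, against 26.4, 33.8, 42.5 and 28.5 CPM in wild-type libraries 1 to 4. Only Tau-P301L library 4 reached the wild-type range, and libraries 3 and 5, which stood apart in profile, were the lowest (log2 fold change -0.88, SE 0.41, edgeR adjusted p = 0.776). Tspan5, a tetraspanin that carries Adam10 to the surface, was estimated at -0.89 on the log2 scale (SE 0.46, edgeR adjusted p = 0.789). It ran from 7.70 to 21.6 CPM in Tau-P301L and from 8.52 to 56.6 CPM in wild-type libraries, with the top value in wild-type library 3. Frmd8, a partner of the Adam17 carrier iRhom, was estimated at -0.66 (SE 0.52, edgeR adjusted p = 0.840). The groups overlapped for both genes.

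Among 12 tested myeloid substrates of these secretases, 4 estimates were higher and 8 lower, with a median of -0.21. Axl, a kinase receptor used in clearing dead cells, had the smallest p of the list, at 92.1 ± 39.5 CPM for Tau-P301L and 46.1 ± 17.6 CPM for wild type (log2 fold change 1.07, SE 0.34, edgeR adjusted p = 0.642). Cd44, an adhesion receptor, was estimated at 1.36 on the log2 scale (SE 0.64) on few reads, and Il6ra, the interleukin 6 receptor, at -0.57 (SE 0.28). Of other secretase subunits and homologues 3 were tested, all with higher estimates in Tau-P301L, among them 0.69 (SE 0.58) for Aph1c, a rodent paralogue of Aph1, and 0.06 (SE 0.42) for Adam9. The 2 tested endothelin-converting proteases, Ece2 and Ece1, which degrade amyloid-beta, gave 0.50 (SE 0.92) and -0.09 (SE 0.56).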

How the data were processed

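Each library's deposited file lists genes by Entrez number with 2 columns. The counts are whole numbers of uniquely aligned reads per gene model, and the RPKM values were adjusted by the authors for library size factors, as the deposited headers state. Reads were aligned with GSNAP to GRCm38, per the submitters' processing notes; the labels name no version, annotation or strand setting. Symbols and positions came from RefSeq GRCm38.p6, which named 31049 of 36528 numbers.

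Counts were tested with edgeR 4.0.16 (R 4.3.3; quasi-likelihood F test, TMM, robust dispersions, default low-count filter, 12250 genes kept), with genotype and sex in 1 model over 9 libraries, Benjamini-Hochberg adjustment over all genes and a threshold of 0.05. DESeq2 1.42.0 and limma-voom with sample quality weights (limma 3.58.1) were alternatives, and the edgeR steps were tested on simulated data. CPM are TMM-scaled. Standard errors come from the F statistic. The median log2 fold change of all genes was -0.00070.

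The 9 genes were named whatever their result. Of each list the 3 tested genes of smallest p were named, and the closest genes by Pearson r among those with a mean of at least 10 CPM (prior count 2). Aplp2, and the sex values of Adam17, were chosen after their values were seen. Members and lists were chosen with earlier results of these data known. Of the genes the rule takes, 1 is not reported here. Depth limits Psen2, Aph1a and Psenen most.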

Additional observations from a re-analysis of the deposited data

Results flagged for a closer look

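Of 18 groups of libraries checked, 9 genes in each genotype, 2 held a library far from the rest of its group, where chance flags about 1 in 20. Sorl1 in wild-type library 1 was the lowest of its group at 26.7 CPM, with the other 3 between 29.1 and 29.5 CPM. The coefficient of variation of that group, 4.61%, was below the 10.7% that counting error alone gives. Psen2 in Tau-P301L library 3 was the highest of its group at 10.8 CPM, from 24 reads, with the other 4 at 2.54 to 4.19 CPM from 6 to 9 reads.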

How the results depend on the processing

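None of the 440 fits of a tested gene of the set, over genotype, sex and their interaction and all alternatives, reached an adjusted p of 0.05 (lowest 0.438). Over all genes, the genotype comparison called 1 gene in edgeR, 27 with DESeq2, 26 with no low-count filter and 0 with the neuronal covariate, without Tau-P301L libraries 3 and 5, in females alone or in males alone. The sex comparison called 6, against 16 with no filter and 10 without Tau-P301L libraries 3 and 5. The interaction called 0, against 4 with DESeq2 and 22 with no filter. Leaving out each library in turn gave 0 to 1 genes for genotype and 0 to 4 for the interaction.

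Signs turned for small and for larger estimates, and the cause was not tested. For genotype, Ncstn was 0.045 and Aph1a -0.48 with the neuronal covariate. Without Tau-P301L libraries 3 and 5, Bace1 was -0.069, Ncstn 0.10 and Aph1a -0.057. In females alone Adam17 was -0.054, Bace1 -0.10, Ncstn 0.15 and Aph1a -0.16, and in males alone App was 0.18. For sex, Aph1a was -0.15 in limma-voom, and without Tau-P301L libraries 3 and 5 Adam10 was -0.18, Bace1 -0.033, Ncstn 0.0055 and Aph1a -0.30. For the interaction, Sorl1 was -0.019 with upper-quartile scaling and Adam10 -0.38 without Tau-P301L libraries 3 and 5. Leaving out those libraries leaves library 4 as the only Tau-P301L male, so sex and interaction values of that setting lean on a single library.

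Leaving out 1 library gave, for genotype, App -0.41 to -0.12, Bace1 0.14 to 0.55, Sorl1 -0.25 to 0.28, Adam17 -0.025 to 0.35, Psen2 -0.80 to 0.15, Ncstn -0.49 to 0.070 and Aph1a -0.19 to 0.99. For sex it gave Sorl1 -0.22 to 0.36, Ncstn -0.55 to 0.037 and Aph1a -0.44 to 0.74. For the interaction it gave Sorl1 -0.60 to 0.71, Adam17 -0.33 to 0.73, Psen2 -3.68 to 0.44 and Aph1a -0.31 to 3.57, where all libraries gave 1.03 for Aph1a. Adam10 kept a positive genotype estimate in all 20 alternatives, from 0.14 without Tau-P301L libraries 3 and 5 to 0.80 in males alone. It was 0.29 in females alone and 0.35 in limma-voom, which also weighted libraries by quality. The levels moved by less than 1 SD with medians or with CPM per length. No paired analysis was possible because the labels give the groups no shared replicate numbers.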
